A study of Mus musculus with 2 samples.

Results

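The 10 genes studied code RNA-binding proteins of muscle splicing (Rbm20, Rbm24, Rbm38, Rbfox1, Rbfox2, Mbnl1, Mbnl2, Mbnl3, Celf1 and Celf2), and were measured in mouse hearts of embryonic day 10.5. These 10 members were taken by symbol from the 43346 Ensembl genes of both gene tables, and their 95 listed transcripts from both transcript tables. The series held 1 group, hearts of healthy B6NCrl embryos with no treatment and no genetic change named in the labels. Replicate 1 pooled the hearts of 69 embryos and replicate 2 those of 51, males and females mixed. Each library was made from 10 ng of total RNA longer than 200 nt. No second condition or stage was measured, so levels were compared between genes and between the pools, without a p-value. A difference between pools is the log2 ratio of replicate 1 over replicate 2.

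Splicing regulators of muscle choose which exons of contractile, channel and cytoskeletal genes enter the mRNA. RBFOX proteins bind the sequence UGCAUG beside or within alternative exons. MBNL and CELF proteins often act on the same exons in opposite directions, with CELF activity linked to embryonic forms and MBNL activity to adult forms in striated muscle. RBM20 holds titin exons out of the cardiac mRNA, RBM24 promotes muscle-type exons, and RBM38, the paralog of RBM24, is also known in red cell differentiation. In human myotonic dystrophy, MBNL proteins are trapped on expanded repeats, and human RBM20 mutations cause a dilated cardiomyopathy.

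The libraries held 45205713 and 41070978 expected counts in replicates 1 and 2, of which 43295923 and 39786163 lay on mouse genes. Heart muscle was represented in both: the 8 cardiomyocyte markers summed to 16232 TPM in replicate 1 and 25654 TPM in replicate 2, where TPM is the share of transcripts, a level scaled for gene length. All 8 were lower in replicate 1, with a median log2 ratio of -0.79. The 6 markers of the liver primordium summed to 1157 TPM in replicate 1 and 47.7 TPM in replicate 2, and the 5 mesenchyme markers to 818 and 587 TPM. The 5 endothelial markers summed to 282 and 315 TPM, the 5 red cell markers to 28499 and 35245 TPM, and the 4 smooth muscle markers to 1945 and 2412 TPM. Most of the smooth muscle sum was Acta2 (1622 and 1946 TPM), and Myh11 of that list had only 0.56 and 0.19 TPM. The 8 neural markers summed to 52.2 and 38.2 TPM, and the 5 skeletal myoblast markers to 6.61 and 2.25 TPM; no marker of these lists was at 0 in both pools. In whole tissue, fewer cells of a type and less RNA per cell cannot be told apart.

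All 10 regulators were detected, which here means 1 TPM or more in both pools, and their levels spanned from just above 1 TPM to above 100 TPM. Rbm38 and Celf1 were the highest and together held 55.2% of the members' summed TPM in replicate 1 and 54.6% in replicate 2. Mbnl1 followed, then Celf2, Rbfox2 and Mbnl2 at a shared level, then Rbm24 and Rbm20, then Mbnl3, and Rbfox1 last. The members summed to 427 TPM in replicate 1 and 530 TPM in replicate 2.

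**Figure D1:**
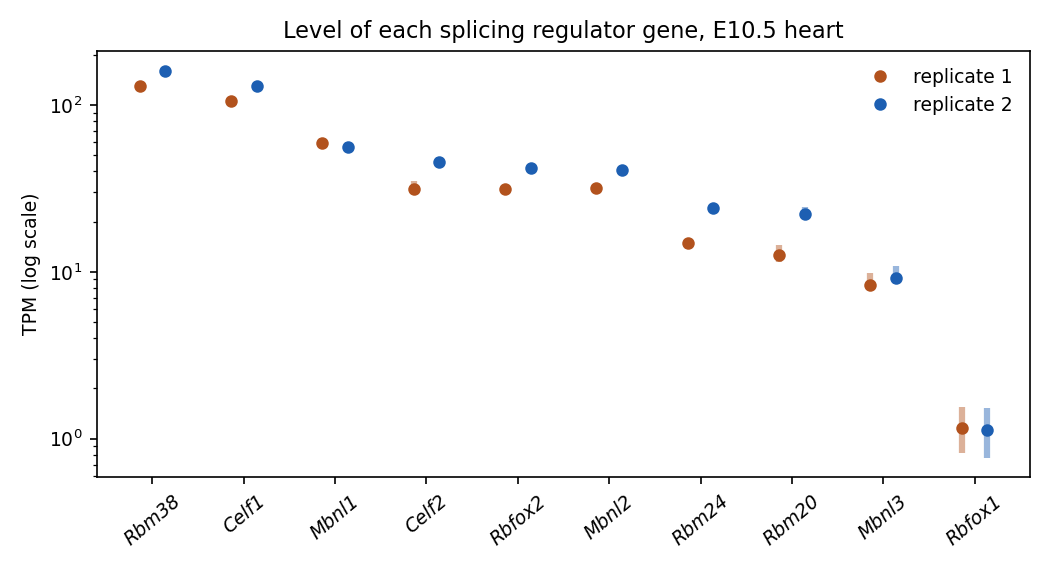
TPM of each regulator gene on a log axis, replicate 1 (orange) left of replicate 2 (blue), with pale bars for the deposited TPM interval of each library. Rbm38 and Celf1 lie above 100 TPM in both pools, and Rbfox1 lies near 1 TPM.

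Among the genes for RBM proteins, Rbm38 (ENSMUSG00000027510.13, GRCm38 chromosome 2, 173020498 to 173034734, plus strand) had 129.5 TPM in replicate 1 and 159.1 TPM in replicate 2, a mean of 144.3 ± 20.9 TPM (SD, n = 2). It ranked 1032 among 12231 detected protein-coding genes. Rbm24 (ENSMUSG00000038132.5, chromosome 13, 46418434 to 46431095, plus strand) had 14.8 TPM in replicate 1 and 24.2 TPM in replicate 2, a mean of 19.5 ± 6.63 TPM (SD, n = 2). Within this paralog pair the level of Rbm38 was therefore the higher, by 8.76-fold in replicate 1 and 6.58-fold in replicate 2. The log2 ratio of Rbm24 over Rbm38 was -2.92 ± 0.29 (SD, n = 2), larger in size than 0.71, the larger change of either gene between pools. Rbm20 (ENSMUSG00000043639.10, chromosome 19, 53677306 to 53867080, plus strand), the titin splicing repressor, had 12.6 TPM in replicate 1 and 22.2 TPM in replicate 2, a mean of 17.4 ± 6.77 TPM (SD, n = 2). Rbm24 and Rbm20 overlapped over the pools, and Rbm24 was 1.17-fold higher than Rbm20 in replicate 1 and 1.09-fold higher in replicate 2. Their mean log2 ratio of 0.18 ± 0.07 (SD, n = 2) was under the limit of 0.81 set by the change between pools. Both genes ranked near the middle of the detected protein-coding genes, at 6156 for Rbm24 and 6516 for Rbm20.

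The RBFOX genes lay far apart. Rbfox2 (ENSMUSG00000033565.12, chromosome 15, 77078990 to 77307004, minus strand) had 31.4 TPM in replicate 1 and 41.7 TPM in replicate 2, a mean of 36.5 ± 7.27 TPM (SD, n = 2). Rbfox1 (ENSMUSG00000008658.11, chromosome 16, 5885355 to 7411526, plus strand), the paralog known for its expression in neurons and adult striated muscle, had 1.16 TPM in replicate 1 and 1.13 TPM in replicate 2. Rbfox1 rested on 46 and 53 expected counts, and its deposited intervals ran from 0.82 to 1.54 TPM in replicate 1 and from 0.77 to 1.52 TPM in replicate 2. At the same depth the level of Rbfox2 was 27.1-fold above that of Rbfox1 in replicate 1 and 36.9-fold above it in replicate 2. The mean log2 ratio of 4.98 ± 0.32 (SD, n = 2) passed its limit of 0.41. The third gene of the family, the neuronal Rbfox3, had 0.50 and 0.11 TPM in replicates 1 and 2.

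The MBNL genes formed an order that held in both pools. Mbnl1 (ENSMUSG00000027763.9, chromosome 3, 60472830 to 60629750, plus strand) had 59.4 TPM in replicate 1 and 56.1 TPM in replicate 2, a mean of 57.7 ± 2.31 TPM (SD, n = 2). Mbnl2 (ENSMUSG00000022139.12, chromosome 14, 120275669 to 120431697, plus strand) had 31.9 and 40.7 TPM in replicates 1 and 2. Mbnl3 (ENSMUSG00000036109.13, chromosome X, 51117269 to 51206532, minus strand), known in mouse myoblasts as an inhibitor of differentiation, had 8.33 and 9.21 TPM. The level of Mbnl1 exceeded that of Mbnl2 by 1.86-fold in replicate 1 and 1.38-fold in replicate 2 (mean log2 ratio 0.68 ± 0.31, SD, n = 2, limit 0.35). Mbnl2 exceeded Mbnl3 by 3.83-fold and 4.42-fold (2.04 ± 0.15), and Mbnl1 exceeded Mbnl3 by 7.13-fold and 6.09-fold (2.72 ± 0.16). All 3 pairs were apart by more than the change between pools.

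Of the CELF genes, Celf1 (ENSMUSG00000005506.12, chromosome 2, 90940382 to 91019497, plus strand) had 106.1 TPM in replicate 1 and 130.4 TPM in replicate 2, a mean of 118.3 ± 17.2 TPM (SD, n = 2). With 14587 and 15466 expected counts it was the most deeply counted of the 10. Celf2 (ENSMUSG00000002107.14, chromosome 2, 6539694 to 7509563, minus strand) had 31.5 TPM in replicate 1 and 45.2 TPM in replicate 2, a mean of 38.4 ± 9.67 TPM (SD, n = 2). The level of Celf1 was 3.37-fold that of Celf2 in replicate 1 and 2.89-fold in replicate 2 (mean log2 ratio 1.64 ± 0.16, SD, n = 2, limit 0.52). The other paralogs, known mainly from the nervous system, were low. Celf4 was detected, with 1.42 TPM in replicate 1 and 1.05 TPM in replicate 2, levels close to those of Rbfox1. Celf3 (0.27 and 0.19 TPM), Celf5 (0.09 and 0.16 TPM) and Celf6 (0 and 0.05 TPM) were below 1 TPM in both pools; Celf4, Celf5 and Celf6 were named after their values were seen.

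In the order of all 10, neighbours were called apart where both pool values of the higher gene lay above both of the lower. Celf1 was apart from Mbnl1, Mbnl1 from Celf2, Mbnl2 from Rbm24, Rbm20 from Mbnl3 and Mbnl3 from Rbfox1. Rbm38 and Celf1 were not apart, since Rbm38 in replicate 1 (129.5 TPM) lay just below Celf1 in replicate 2 (130.4 TPM), although Rbm38 was the higher within each pool. Celf2, Rbfox2 and Mbnl2 overlapped over the pools, and Rbfox2 and Mbnl2 changed places between them. Annotated genes that overlap the members held few reads. The most counted were both within Celf2, Gm26565 on the opposite strand (101 and 105 expected counts in replicates 1 and 2) and Gm10115 on the same strand (72 and 81). Gm16299, antisense to Rbm20, had 49 and 32.

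All 10 regulators had a log2 ratio below 0, that is, were lower in replicate 1, when expected counts were scaled by TMM (a library scaling that trims extreme genes). Of the 14131 genes with a mean count of at least 50, 51.6% had a ratio below 0. The members' ratios ran from -1.07 for Rbm20 to -0.16 for Mbnl1, with a median of -0.45, against -0.01 for the tested genes. By the deposited TPM without rescaling, the median of the tested genes stood at 0.09, Mbnl1 (0.08) and Rbfox1 (0.04) turned positive, and all 10 members still lay below that median.

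**Figure D2:**
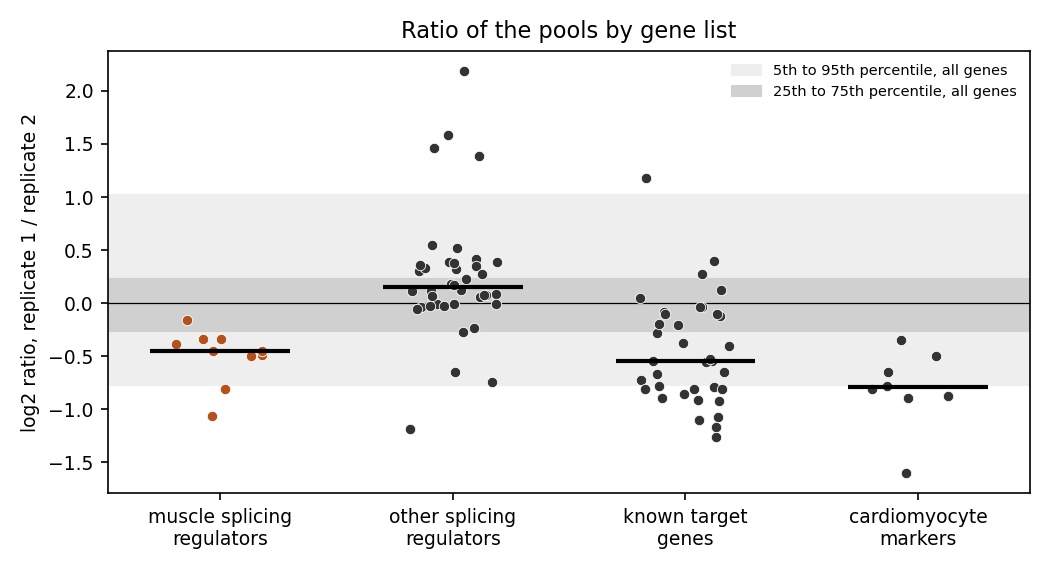
Log2 ratio of replicate 1 over replicate 2 for each gene of 4 lists, with a bar at each list's median and grey bands for the central part of the 14131 tested genes. The 10 muscle splicing regulators all lie below 0, with a median of -0.45, and the 8 cardiomyocyte markers have a median of -0.79.

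Rbm20 was the regulator that differed most between pools. Its 2059 expected counts in replicate 1 and 3631 in replicate 2 gave a ratio of -1.07, 2.10-fold lower in replicate 1, with TPM intervals of 11.4 to 14.4 in replicate 1 and 20.8 to 24.4 in replicate 2. It was the 1 of 9 members with a mean count of 50 or more that was counted as differing, meaning at least 2-fold with TPM intervals that do not overlap. By the deposited TPM without rescaling its ratio was -0.81, under the 2-fold limit, and no member was then counted as differing. Among all tested genes 7.06% were counted as differing by the scaled counts, 2.31% being lower and 4.76% higher in replicate 1. Rbm24 came next with a ratio of -0.81, on 1402 expected counts in replicate 1 and 2066 in replicate 2, 1.75-fold lower in replicate 1. Rbfox2 (-0.50), Celf2 (-0.49), Mbnl2 (-0.45) and Rbfox1 (-0.45) followed, then Rbm38 (-0.39), Mbnl3 (-0.34), Celf1 (-0.33) and Mbnl1 (-0.16).

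The deposited TPM intervals did not overlap for 7 of the 10 members, all lower in replicate 1, whereas they overlapped for Mbnl1, Mbnl3 and Rbfox1. Among all tested genes the intervals of 52.3% did not overlap, 18.96% lying lower in replicate 1 and 33.3% higher. These intervals cover counting and assignment of reads within a library, not the spread between pools. The cardiomyocyte markers moved the same way as the members, with ratios from -1.60 for Myh7 to -0.35 for Myl7. So did the medians of the endothelial (-0.51), smooth muscle (-0.43) and red cell markers (-0.35). Within these lists Myh11 of smooth muscle (1.46) and the endothelial Egfl7 (0.05) lay above 0. Medians of the liver primordium (4.46), skeletal myoblast (1.71), neural (1.03) and mesenchyme markers (0.64) lay the other way. Over markers with a mean count of 50 or more, the myoblast median was 1.305 (3 genes) and the neural median 0.69 (6 genes). Nes, the neural marker with the most counts, was at 0.06. The mesenchyme marker Vcan (-0.61) and the neural marker Elavl4 (-0.02) lay below 0. The part of tissue makeup in the members' ratios was not tested.

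Most transcript shares changed little between the pools, and those of Rbm20 changed most. The median absolute difference between pools in the percent of a gene's TPM was 0.595 points over the 92 member transcripts tested, against 1.11 points over 58384 transcripts. Both medians take in transcripts without any TPM in either pool, which show no difference. A difference of 20 points was reached by 1 of the 92, against 2.71% of all. It was Rbm20-203, the transcript with the longest coding sequence of the gene (3597 nt), with 59.6% in replicate 1 and 84.4% in replicate 2, a difference of -24.9 points. Rbm20-201, a transcript of type nonsense-mediated decay, held 27.8% in replicate 1 and 8.59% in replicate 2. Its TPM intervals overlapped between pools (2.47 to 5.05 in replicate 1 and 0.89 to 4.18 in replicate 2). Transcripts annotated as protein-coding held 63.3% of Rbm20 TPM in replicate 1 and 88.2% in replicate 2. A further transcript, with 8.87% and 3.16%, had no match in the annotation and is of unknown type. Rbm20 was lower in replicate 1 in level and in the share of its transcripts annotated as coding. Rbm20-203 had 6592 nt as deposited and 4892 nt in the annotation used here, which gave its type and coding length. By share of expected counts, the difference for Rbm20-203 (72.1% and 91.9%) fell just short of 20 points.

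**Figure D3:**
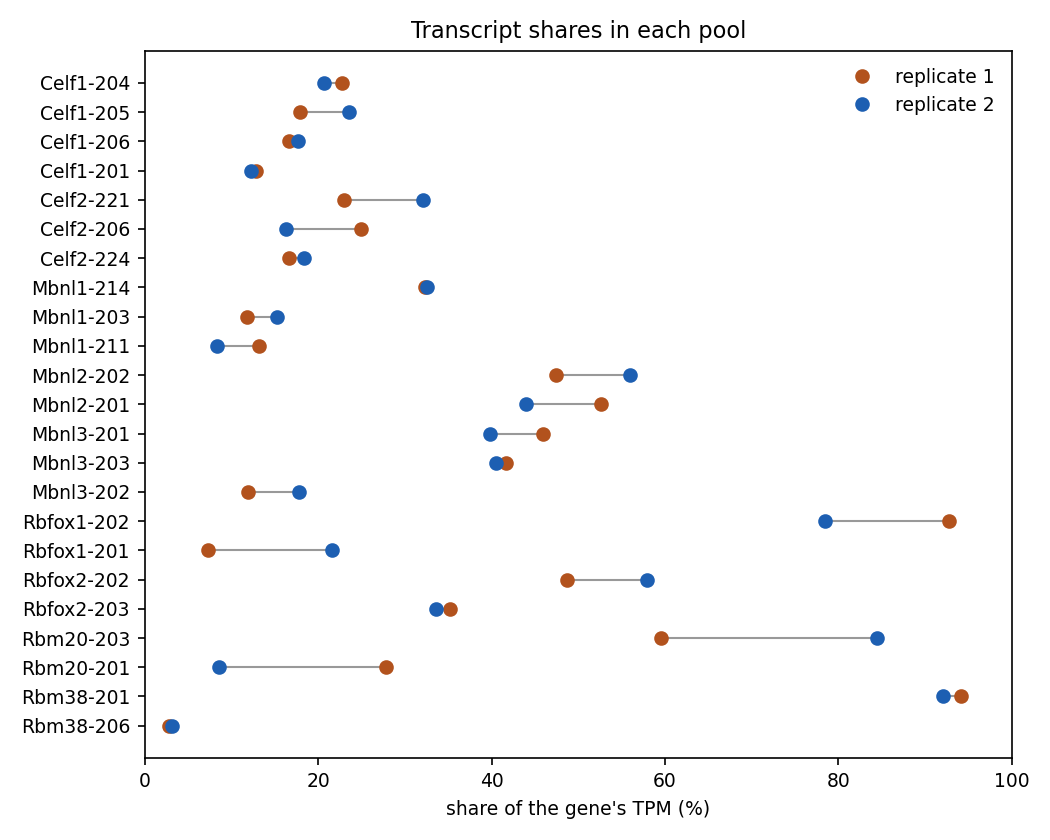
Percent of the gene's TPM held by each named transcript in replicate 1 (orange) and replicate 2 (blue), joined by a line. Rbm20-203 has the widest gap, 59.6% in replicate 1 and 84.4% in replicate 2, and Mbnl1-214 lies at 32.4% and 32.6%.

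By share of TPM, several regulators had no leading transcript that was the same in both pools. Celf2-206 led Celf2 in replicate 1 (24.9%, against 16.3% in replicate 2) and Celf2-221 in replicate 2 (23.0% in replicate 1 and 32.2% in replicate 2). The TPM intervals of these transcripts overlapped in replicate 1. By share of expected counts Celf2-206 led in both pools (39.5% and 28.3%, against 16.5% and 25.2% for Celf2-221). Mbnl2-201 held 52.6% in replicate 1 and 44.0% in replicate 2, and Mbnl2-202 the rest. Their TPM intervals also overlapped in replicate 1. Celf1 was spread over 4 transcripts above 10%, led by Celf1-204 (22.8% in replicate 1 and 20.7% in replicate 2) and Celf1-205 (17.9% and 23.5%). Mbnl3-201 (46.0% and 39.8%) and Mbnl3-203 (41.7% and 40.5%) shared most of Mbnl3.

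Other members had the same leading transcript in both pools by share of TPM. Rbm38-201 held 94.1% in replicate 1 and 92.1% in replicate 2, and Rbm24 had 1 listed transcript. Rbfox2-202 led Rbfox2 with 48.7% and 57.9%, before Rbfox2-203 with 35.2% and 33.6%. Rbfox1-202 held 92.7% in replicate 1 and 78.4% in replicate 2, on only 35.8 and 26.5 estimated counts. By share of expected counts it held 77.8% and 49.9%, and Rbfox1-201 22.2% and 50.1%. By counts Rbfox1-202 therefore had no lead in replicate 2. Mbnl1-214 led Mbnl1 with 32.4% and 32.6% although the gene has 25 listed transcripts, and 78.8% and 78.9% of Mbnl1 TPM was on protein-coding transcripts.

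Exon inclusion was read from the transcripts, as the TPM of transcripts that hold an exon in percent of the TPM of those that hold or skip it. It could be given where the transcript models matched by ID and length, which was so for 87 of the 95 member transcripts. Mbnl2, Rbfox1, Rbfox2, Rbm20 and Rbm24 gave no exon. The other 5 genes gave 22 alternative exons, of which 11 lay between 5% and 95% inclusion. None of the 22 differed by 20 points between pools, against 5.67% of 14296 exons of all genes, and the median difference was 1.51 points, against 1.39 points for all.

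The MBNL genes carry short cassette exons that are known to be regulated. Those of Mbnl1 are shown because both were near even use in this heart, with the related exons of Mbnl2 and Mbnl3, which were chosen after values were seen. Sequences are from GENCODE M21 transcripts (GRCm38) and lie wholly within coding sequence. The 54-nt exon of Mbnl1 (chr3:60614683-60614736, plus strand) is known to favour nuclear localisation of the protein. Capitals mark the 8 bases at which it differs from the 54-nt exon of Mbnl2 (chr14:120395712-120395765, plus strand), the other 46 (85.2%) being identical:
Mbnl1 54-nt exon: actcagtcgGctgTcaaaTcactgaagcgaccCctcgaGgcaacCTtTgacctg
Mbnl2 54-nt exon: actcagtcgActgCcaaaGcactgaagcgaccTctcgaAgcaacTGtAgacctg

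Inclusion of this Mbnl1 exon was 45.8% in replicate 1 and 45.9% in replicate 2 (mean 45.8% ± 0.057, SD, n = 2). By TPM the pools were nearly equal at this exon, on 5737 and 5369 estimated counts of the transcripts involved. Its level depended on the measure: 56.4% and 53.4% by expected counts, and 52.4% and 50.9% over protein-coding transcripts only. The SD does not cover this. Mbnl1-214, the leading transcript, holds the exon. For Mbnl2 the split could not be read, because Mbnl2-202 has a length of 4498 nt in the deposited tables and 4534 nt in the annotation used here.

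The 36-nt exon of Mbnl1 (chr3:60621423-60621458, plus strand), known for a part in contacts between MBNL1 molecules, was included at 42.6% in replicate 1 and 46.1% in replicate 2. Mbnl1-214 skips it, and Mbnl1-203 (11.8% and 15.3% of Mbnl1 TPM) and Mbnl1-211 (13.2% and 8.30%) hold it. A 36-nt exon of Mbnl3 (chrX:51126126-51126161, minus strand) was nearly always skipped, with 0% in replicate 1 and 1.85% in replicate 2, on 563 and 602 estimated counts. The exons share 26 of 36 bases (72.2%), and capitals mark TGCATG, the RBFOX motif written as DNA, present in both:
Mbnl1 36-nt exon: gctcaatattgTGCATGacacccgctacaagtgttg
Mbnl3 36-nt exon: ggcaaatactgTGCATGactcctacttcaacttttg

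TGCATG on the sense strand was found in 3.58% of the 14296 exons, and its reverse complement CATGCA in 3.83%. Of the 57 exons of 36 nt, 2 held it on the sense strand (3.51%), and those are the exons printed here. A match describes the letters and does not show binding.

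**Figure D4:**
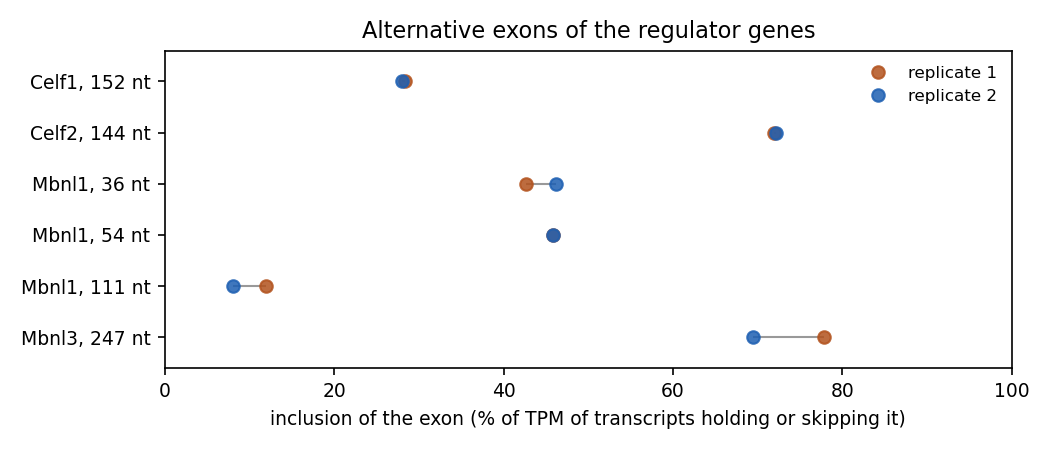
Inclusion of the 6 named alternative exons in replicate 1 (orange) and replicate 2 (blue), as percent of the TPM of transcripts that hold or skip each exon. The 54-nt exon of Mbnl1 lies at 45.8% and 45.9%, and the 247-nt exon of Mbnl3 has the widest gap, 77.8% and 69.5%.

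A 111-nt exon of Mbnl1 (chr3:60596719-60596829) was at 12.0% in replicate 1 and 7.99% in replicate 2. It rested on the short transcript Mbnl1-210 alone, and by expected counts its share was 1.57% and 0.94%. The 247-nt exon of Mbnl3 (chrX:51164418-51164664), partly untranslated, was at 77.8% in replicate 1 and 69.5% in replicate 2. Mbnl3-203, which holds it, codes 1026 nt, and Mbnl3-202, which skips it, 738 nt. These transcripts held 4.46 of the 8.33 TPM of Mbnl3 in replicate 1 and 5.37 of 9.21 TPM in replicate 2. Mbnl3-201 (46.0% and 39.8% of Mbnl3 TPM) is outside the measure. By expected counts the exon was at 62.3% and 51.8%. Among the Mbnl1 exons that were not named, the widest gap was -16.7 points at a 49-nt exon, on 969 and 993 estimated counts.

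In the CELF genes the inclusion levels were nearly the same in both pools. The 144-nt exon of Celf2 (chr2:6549832-6549975, minus strand) lies in the region that codes the third RNA recognition motif of the protein. Its inclusion was 71.9% in replicate 1 and 72.2% in replicate 2 (mean 72.1% ± 0.23, SD, n = 2). By expected counts the exon was at 79.2% and 79.8%. It is printed because most but not all Celf2 RNA held it, and no capitals are used, since it holds no TGCATG on either strand:
Celf2 144-nt exon: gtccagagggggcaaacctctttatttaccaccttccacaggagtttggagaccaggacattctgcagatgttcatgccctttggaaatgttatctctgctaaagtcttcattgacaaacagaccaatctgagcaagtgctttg

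A 152-nt exon of Celf1 (chr2:90987665-90987816, plus strand), partly untranslated, was at 28.4% in replicate 1 and 28.0% in replicate 2. Celf1-201, which holds it, codes 1539 nt, and Celf1-206, which skips it, 1458 nt. The transcripts in the measure held 48.2 of 106.1 TPM in replicate 1 and 57.2 of 130.4 TPM in replicate 2. Celf1-204 and Celf1-205 are outside the measure. By expected counts the exon was at 24.9% and 25.4%.

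Genes known as splicing targets of these regulators were read from a list of 36 genes. Of these, 34 were detected, and 31 had a ratio below 0, with a median of -0.54. Of all 17557 genes with a mean count of at least 10, 8695 had a ratio below 0. The list includes Ttn, Tnnt2 and Ryr2, which are also among the cardiomyocyte markers. The highest were the tropomyosin gene Tpm1 (2488 and 3470 TPM in replicates 1 and 2), the cardiac troponin gene Tnnt2 (1804 and 3077 TPM), Tmed2 (453 and 439 TPM) and Capzb (376 and 381 TPM). Titin, Ttn, the best known target of RBM20, measured 295 TPM in replicate 1, against 460 TPM in replicate 2, a ratio of -0.81; it was named after its value was seen. By the same rule as above, 4 of the 35 targets with a mean count of 50 or more differed and were lower in replicate 1. Among all tested genes this share was 2.31%. The 4 included the calcium channel gene Cacna1c (-1.07), the formin gene Fhod3 (-1.10) and the triadin gene Trdn (-1.16). Bin1, a gene of membrane tubules, was the 1 target that differed and was higher in replicate 1 (36.6 TPM, against 15.2 TPM in replicate 2, ratio 1.18). Among all tested genes this share was 4.76%. The chloride channel gene Clcn1, known from adult skeletal muscle, was below 1 TPM, with 0.49 and 0.57 TPM.

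In 23 of these targets 317 alternative exons could be read, and 6 (1.89%) differed by 20 points, in 3 genes. Exons of the same gene among the 6 rested on the same estimated counts, so they are not independent. Among all exons tested the share was 5.67%, so the 6 are given as values and not as a property of the targets. In Cacna1c a 75-nt exon in the loop between the first and the second repeat of the channel (chr6:118715903-118715977, minus strand) was at 41.2% in replicate 1 and 18.9% in replicate 2. It holds TGCATG, marked in capitals, as did 2 of the 128 exons of 75 nt (1.56%), and was chosen after values were seen:
Cacna1c 75-nt exon: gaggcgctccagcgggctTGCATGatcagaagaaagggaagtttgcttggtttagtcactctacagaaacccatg

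A pair of other Cacna1c exons of 104 nt, used in place of each other, were at 43.6% in replicate 1 and 19.7% in replicate 2, and at 56.4% and 80.3%. All the Cacna1c exons given here rested on the same 1305 and 2452 estimated counts. The 75-nt exon and the first of the 104-nt pair were both taken from the transcript Cacna1c-204. A 113-nt exon of Capzb, the beta subunit of the actin capping protein, was at 36.4% in replicate 1 and 60.5% in replicate 2, on 17913 and 16327 estimated counts. A pair of Nfix exons had identical values, 33.3% and 71.1%, on the same 57.6 and 83.3 estimated counts, which are few. Levels of tissue markers differed between the same pools, and the part of tissue makeup in these exon differences was not tested.

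Other splicing regulators were read from a list of 42 genes, of which 35 were detected. Of the 40 with a mean count of at least 10, 28 were higher in replicate 1, with a median ratio of 0.15. Of all 17557 genes with such a count, 8862 were higher in replicate 1. By the rule above, 3 of 38 regulators differed and were higher in replicate 1, and 1 was lower. Among all tested genes these shares were 4.76% and 2.31%. The most abundant were Hnrnpa1 (738 TPM in replicate 1 and 561 TPM in replicate 2), Hnrnpa2b1 (654 and 627 TPM), Srsf3 (616 and 527 TPM) and Srsf2 (605 and 488 TPM), broadly expressed splicing factors well above any member. Srpk3, a muscle kinase of splicing factors, had 32.7 TPM in replicate 1 and 69.0 TPM in replicate 2, a ratio of -1.19, and differed in the direction of Rbm20. The epithelial regulators Esrp2 (4.52 and 1.99 TPM; ratio 1.58), Esrp1 (3.49 and 1.09 TPM; 1.46) and Rbm47 (2.82 and 1.10 TPM; 1.39) differed in the opposite direction. All 6 liver primordium markers were higher in replicate 1 beside them, with ratios above 4, and the part of that tissue was not tested. Among regulators known from neurons, Nova1 (0.93 and 0.82 TPM), Nova2 (0.66 and 0.74 TPM) and Rbfox3 were below 1 TPM in both pools. Ptbp2 (45.4 and 40.3 TPM) was well above it and Srrm4 (0.67 and 1.00 TPM) reached it in replicate 2; these were named after their values were seen.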

How the data were processed

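Each of the 2 libraries was made from total RNA of 1 pool of embryonic hearts. The authors deposited a gene table and a transcript table for each library, with expected counts (estimated reads per feature, not normalised) and posterior mean counts. The deposited TPM and FPKM were scaled by the authors for feature length and library depth. The deposited bounds of the TPM interval were treated as a score, and the deposited percent values give each transcript's part of its gene's TPM. The genome was mm10 with annotation M4, per the labels' and files' descriptions. Not given in the sources used here are the program that made the counts and whether it used strand. Reads of overlapping or near-identical genes are therefore uncertain.

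The members and all lists were chosen with earlier results of these data known. Names and exons came from GENCODE M21 (42462 of 43346 Ensembl genes matched), and exons were used only from transcripts whose ID and length matched. Expected counts were rounded and scaled by TMM in edgeR 4.0.16 (R 4.3.3), with a prior count of 0.5, or by DESeq2 1.42.0 as an alternative; no p-value was computed. Genes counted as differing had a mean count of 50 or more, a ratio of 2-fold or more and separate deposited TPM intervals. A shift of a transcript or exon was 20 points. A pair of genes was apart where the sign was the same in both pools and the mean log2 ratio of TPM passed the larger change between pools of either gene. Spike-in RNA took 4.22% of counts in replicate 1 and 3.13% in replicate 2. Intervals cover only counting and the assignment of reads within a library, not the spread between pools. Reads were not tagged by molecule. Named beside the members were, from each list, the 4 genes with the highest TPM, those that differed, and up to 4 below 1 TPM, besides genes said to be named after their values were seen; 1 such gene is not reported here. Named transcripts were each gene's leading 2, those with 10% or more and any shifted, and named exons up to 3 per gene between 5% and 95%. Python 3.11.15 with pandas 2.3.3, numpy 2.4.6 and matplotlib 3.10.9 was used for the rest. The scripts were tested on simulated data.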

Additional observations from a re-analysis of the deposited data

How the results depend on the processing

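Of 59 alternative values for the main results 53 kept the call (pairs: direction and side of their limit; counts: within 1.5 times), and 6 did not. The count of 1 differing member became 2 with ERCC spike-in scaling and 0 with the deposited TPM ratio. Spike-in scaling moved the median log2 ratio of all tested genes from -0.01 to -0.34, and the TPM ratio moved it to 0.09. The share of all tested genes that differed is not given for those settings. With a limit of 1.5-fold the count became 2, and 16.3% of tested genes passed (7.73% lower in replicate 1). The count of 1 shifted transcript became 2 at a limit of 10 points (8.76% of all transcripts) and 0 by share of expected counts. The log2 ratio of Rbm24 over Rbm20 became -0.68 when expected counts were used without division by length. The other pairs kept their direction by counts, with sizes that moved: 7.11 for Rbfox2 over Rbfox1, 2.98 for Mbnl2 over Mbnl3 and -2.01 for Rbm24 over Rbm38. Among single members, transcripts and exons, 25 of 116 alternative values moved by more than the spread between pools. Most of these came with spike-in scaling or with counts in place of TPM. The 30 alternative values of list medians all kept their sign. The alternatives each library alone, FPKM, posterior means, a pseudocount of 1, DESeq2 size factors and other count minimums changed none of the calls of pairs or of the member counts. No paired analysis was possible because there was 1 group only. With 2 pools the spread between animals cannot be estimated, and Rbfox1, on 46 and 53 counts, is the member most limited by depth.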
